A study of Mus musculus with 6 samples.

Results

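Ptf1a, Rbpj, Lhx1, Lhx5, Pax2, Pax8, Kirrel2, Nphs1, Gad1 and Gad2 were examined as a set of genes linked to inhibitory interneurons of the dorsal neural tube. They were taken by symbol from the edgeR table of the series, which lists 15095 genes, and 10 of 10 were present. The table is based on polyA RNA of 3 Setd2-KO and 3 wild-type samples of mouse neural progenitor cells (NPCs), all derived from embryonic stem cells. Cells of both genotypes were kept as aggregates for 4 days without and for another 4 days with 5 uM retinoic acid, and were collected at day 8. SETD2 is the methyltransferase that places trimethylation on lysine 36 of histone H3, and its loss is the only difference between the groups that the labels give. Neither labels nor methods state the number of Setd2-KO clones behind these samples, or whether samples of a genotype came from separate differentiations.

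Only 1 measure of the table was used here, the authors' average log2 CPM (read counts scaled to the size of the library, on a log2 scale) over all 6 samples. It pools both genotypes, so a value belongs to neither Setd2-KO nor wild-type NPCs, carries no SD and cannot be set against replicate error. The other columns of values hold the authors' own comparison of the genotypes and were not used, so that no difference between Setd2-KO and wild-type NPCs is given for any gene. The genes were proposed with that comparison known, and their levels are a description without a test. The average log2 CPM of Setd2 itself was 6.88, and as a pooled value it does not check the genotype. The depth of each sample is unknown. In bulk RNA, fewer cells of a type and less RNA per cell cannot be told apart.

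Ptf1a is a basic helix-loop-helix factor that directs progenitors of the dorsal spinal cord, hindbrain, cerebellum and retina towards inhibitory fates. It acts in a trimeric complex with an E protein, which helps it to bind an E-box, and with Rbpj, which is otherwise the DNA-binding effector of Notch signaling. In the spinal cord, neurons that have left this program express Lhx1, Lhx5, Pax2 and Pax8 and make GABA or glycine, whereas loss of Ptf1a in mice turns them towards the excitatory fate. Nphs1 and Kirrel2 encode the adhesion proteins nephrin and Neph3, which are known in mouse as direct targets of Ptf1a in the developing nervous system.

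Since a long transcript yields more reads, levels were compared between genes as the average log2 CPM per kb of the canonical transcript of GENCODE vM39. The annotation behind the counts is unclear, so these lengths may differ from those over which reads were counted. On the scale per kb, the 10 genes ranged from -0.72 for Nphs1 to 6.26 for Lhx1. Their median was 2.82, beside a median of 2.77 over the listed genes. The order was Lhx1, Pax2, Rbpj, Lhx5, Pax8, Gad1, Ptf1a, Kirrel2, Gad2 and Nphs1. The smallest step in this order was that of Ptf1a over Kirrel2 (0.14) and the largest that of Gad2 over Nphs1 (1.77). No spread is at hand to tell which neighbours differ. Without the correction for length, the average log2 CPM of the 10 genes had a median of 4.79, against 4.57 for all listed genes, and 5 of the 10 lay above the median of all listed genes. By level per kb, 4 genes lay above the upper quartile of all listed genes (4.29), 1 lay below the lower quartile (0.44), and the first 5 places were held by the transcription factors other than Ptf1a.

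**Figure D1:**
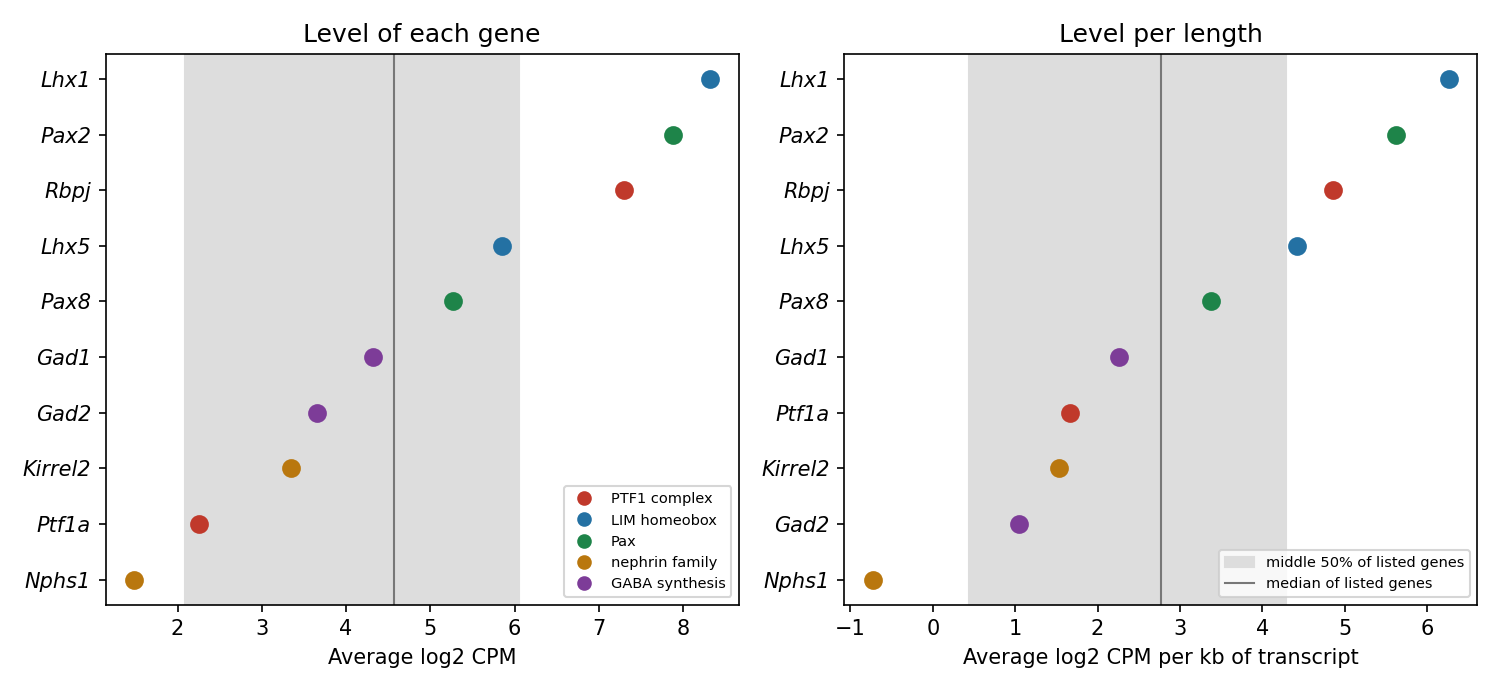
Average log2 CPM over all 6 samples (left, x axis) and the same per kb of canonical transcript (right, x axis) of the 10 genes (y axis, sorted by value), from the authors' average; each point is 1 gene coloured by its role, the grey band spans the middle 50% of the listed genes and the line marks their median. Lhx1, Pax2 and Rbpj lie above the band in both panels and Nphs1 lies below it.

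Within the PTF1 complex, Rbpj was more abundant than Ptf1a. Ptf1a, on chromosome 2 from 19450474 to 19452312 (GRCm39, plus strand), had an average log2 CPM of 2.25, which corresponds to 4.77 CPM and is higher than in 26.2% of the listed genes. Its gene is short, with 2 exons in a canonical transcript of 1.51 kb, and the level per kb was 1.66. Rbpj, on chromosome 5 from 53623494 to 53814704 (plus strand), spans 191 kb and has 11 exons. Its average log2 CPM was 7.30 (157 CPM, above 91.1% of the listed genes), and its level per kb was 4.85. The difference in level per kb of Ptf1a from Rbpj was thus -3.19 on the log2 scale. This size moved with the length used, to -1.95 for the union of all exons and to -4.45 for the coding length.

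The E proteins, which complete the complex, were at levels close to or above that of Rbpj. Tcf3, Tcf12 and Tcf4 had levels per kb of 6.53, 5.05 and 4.42. Rbpjl, the paralog that replaces Rbpj in the complex of pancreatic acinar cells, was near the bottom of the table with an average log2 CPM of -2.13, and 0.636% of the listed genes lay lower. Of the 22 genes of the Notch pathway around Rbpj, all were listed and 15 lay above the median of all listed genes per kb. By average log2 CPM, the highest were the receptors Notch1 (8.08) and Notch3 (7.87) and the corepressor Spen (7.68), which Rbpj binds in the absence of Notch signaling. The lowest were the repressor Hey2 (2.04) and the ligand Dll4 (2.94). Corrected for length, this order did not hold. Levels per kb were 4.83 for Notch1, 4.86 for Notch3, 4.07 for Spen, 0.67 for Hey2 and 0.99 for Dll4. Chosen after their values were seen, the Notch-responsive repressors Hes5 and Hes1 had levels per kb of 7.22 and 5.38. The level of Rbpj cannot be divided between its roles in Notch signaling and in the PTF1 complex.

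The LIM homeobox genes Lhx1 and Lhx5 encode related transcription factors that act together in postmitotic inhibitory neurons and maintain Pax2 in the mouse spinal cord. Lhx1, on chromosome 11 from 84408803 to 84416368 (minus strand), was the most abundant gene of the set by either measure, with an average log2 CPM of 8.32 (319 CPM), above 97.0% of the listed genes. Lhx5, on chromosome 5 from 120569764 to 120579292 (plus strand), had an average log2 CPM of 5.85 (57.7 CPM), above 71.7% of the listed genes. Both canonical transcripts have 5 exons. Per kb, the level of Lhx1 was 3.58 times that of Lhx5 (6.26 and 4.42 on the log2 scale).

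The paired-box genes Pax2 and Pax8 belong to one subfamily with overlapping roles in inhibitory neurons, the hindbrain boundary and the kidney. Pax2, on chromosome 19 from 44735057 to 44826703 (plus strand), had an average log2 CPM of 7.88 (235 CPM) and was number 748 of the listed genes from the top. Pax8, on chromosome 2 from 24309418 to 24365617 (minus strand), had an average log2 CPM of 5.27 (38.6 CPM), above 61.9% of the listed genes. The level per kb of Pax2 was 4.76 times that of Pax8, with 5.62 and 3.37 on the log2 scale. In both pairs the order was the same with the union of exons (differences of 1.77 for Lhx1 from Lhx5 and 2.76 for Pax2 from Pax8) and with the coding length (2.45 and 2.82).

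Gad1 and Gad2 encode the glutamate decarboxylases GAD67 and GAD65, which make GABA. Gad1, on chromosome 2 from 70383416 to 70432372 (plus strand), had an average log2 CPM of 4.32, above 46.4% of the listed genes. Gad2, on chromosome 2 from 22511862 to 22583886 (plus strand), had an average log2 CPM of 3.65 (12.6 CPM), above 38.4% of the listed genes. Levels per kb were 2.27 for Gad1 and 1.05 for Gad2. The order of this pair was not stable: the difference of 1.22 became -0.00984 with the union of all exons, which counts 10413 bases for Gad1 against 4152 in its canonical transcript, and 6523 against 6099 for Gad2. Both lay below the median of the listed genes by average log2 CPM and per kb of canonical transcript, as did Ptf1a, Kirrel2 and Nphs1.

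Kirrel2 and Nphs1 are neighbours on chromosome 7 and are transcribed away from each other. Kirrel2 runs from 30146958 to 30157131 (GRCm39, minus strand) and Nphs1 from 30157740 to 30186675 (plus strand), so that 608 bases and 0 annotated genes lie between them. Their canonical start sites are 2025 bases apart. Kirrel2 had an average log2 CPM of 3.35 (10.2 CPM), above 35.2% of the listed genes, and Nphs1 had 1.49 (2.80 CPM), above 21.3%. Per kb, Kirrel2 was at 1.53 and Nphs1 at -0.72, a ratio of 4.76. Of the other nephrin family genes, Kirrel1, listed under its older symbol Kirrel, had a level per kb of 3.34 and Kirrel3 one of -1.58. Of the intracellular partners known from the slit diaphragm of the kidney, Nck2 (4.92), Fyn (4.56), Magi1 (3.92) and Cd2ap (3.62) lay above Kirrel1 per kb, and Nck1 (2.03), Synpo (1.32) and Magi2 (-0.25) lay below it but above Nphs1.

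Promoters are shown for the PTF1 complex and for its nephrin-family targets, because the complex reads an E-box and an Rbpj site together. Each sequence is the RefSeq window of GRCm38.p6 from 250 bases before to 50 bases after the start site, read on the strand of the gene. Capitals mark matches of the E-box CANCTG or of the Rbpj core TGGGAA on either strand, and the E-box was also read as its reverse complement CAGNTG and the Rbpj core as TTCCCA. The windows are chr2:19445413-19445712 for Ptf1a, chr5:53590096-53590395 for the first start of Rbpj, chr7:30457466-30457765 for Kirrel2 and chr7:30459808-30460107 for Nphs1.
Ptf1a: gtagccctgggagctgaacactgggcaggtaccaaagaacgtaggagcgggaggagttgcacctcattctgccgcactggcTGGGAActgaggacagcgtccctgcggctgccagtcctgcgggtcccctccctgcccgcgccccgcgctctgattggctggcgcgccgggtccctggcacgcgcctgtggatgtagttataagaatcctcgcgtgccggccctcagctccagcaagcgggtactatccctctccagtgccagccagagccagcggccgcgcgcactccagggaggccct
Rbpj: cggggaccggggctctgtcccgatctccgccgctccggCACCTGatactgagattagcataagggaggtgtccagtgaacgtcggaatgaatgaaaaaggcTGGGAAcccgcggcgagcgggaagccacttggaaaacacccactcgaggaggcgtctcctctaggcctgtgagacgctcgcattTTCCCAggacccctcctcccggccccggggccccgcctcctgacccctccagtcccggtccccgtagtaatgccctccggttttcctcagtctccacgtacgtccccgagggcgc
Kirrel2: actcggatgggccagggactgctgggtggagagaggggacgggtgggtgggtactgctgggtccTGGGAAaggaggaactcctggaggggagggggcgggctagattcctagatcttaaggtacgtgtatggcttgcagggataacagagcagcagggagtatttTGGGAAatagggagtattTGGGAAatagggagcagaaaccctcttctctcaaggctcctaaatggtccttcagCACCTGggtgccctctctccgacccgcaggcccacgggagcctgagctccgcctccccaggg
Nphs1: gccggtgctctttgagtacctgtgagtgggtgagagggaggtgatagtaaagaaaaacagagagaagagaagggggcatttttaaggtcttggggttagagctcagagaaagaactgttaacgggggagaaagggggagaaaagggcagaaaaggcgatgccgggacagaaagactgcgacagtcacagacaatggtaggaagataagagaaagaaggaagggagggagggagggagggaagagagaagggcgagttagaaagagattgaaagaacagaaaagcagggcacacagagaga

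The window of Kirrel2 holds 3 copies of TGGGAA, which begin at positions -186, -85 and -67 from the start site, and a CACCTG that begins at -12. At least 3 copies were found in 0.368% of the 32851 windows of all genes, a feature of Kirrel2 that was picked out after the windows had been searched. The copies at -85 and -67 lie in a short stretch that occurs there in tandem. The window of Nphs1 holds 0 matches of either motif, and that of Ptf1a holds a single TGGGAA at -169. The RefSeq start sites of Kirrel2 and Nphs1 lie further apart than their canonical start sites. The windows of this pair are therefore not both placed at the canonical starts, and motifs near those starts may be missed. The first start of Rbpj has a CACCTG at -212 and Rbpj cores at -149 and -65.

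Of the 10 genes, 9 had a RefSeq window, with 12 windows in all, and Lhx5 was named only. CANCTG was found in windows of 6 of the 9 genes (Gad1, Gad2, Kirrel2, Pax2, Pax8 and Rbpj), that is in 7 of 12 windows (58.3%) against 51.4% of all windows. TGGGAA was found for 4 of 9 genes (Kirrel2, Pax2, Ptf1a and Rbpj), in 5 of 12 windows (41.7%) against 25.6% of all windows. The windows of the 2 starts of Rbpj overlap, and the TTCCCA at -65 of the first is the one at -205 of the second, so that this site is counted in both. A window with both motifs was seen for Kirrel2 and Rbpj, beside 13.7% of all windows, and in 0 of the 12 windows did both lie within 30 bases of each other (4.25% of all windows). The windows are few, these differences in share were not tested, and a match is not a measured binding site. The windows of the set had a median GC content of 61.5% and a median of 22 CpG dinucleotides, against 52.7% and 7 over all windows. They ranged from 6 CpG for Nphs1 to 31 for Lhx1.

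**Figure D2:**
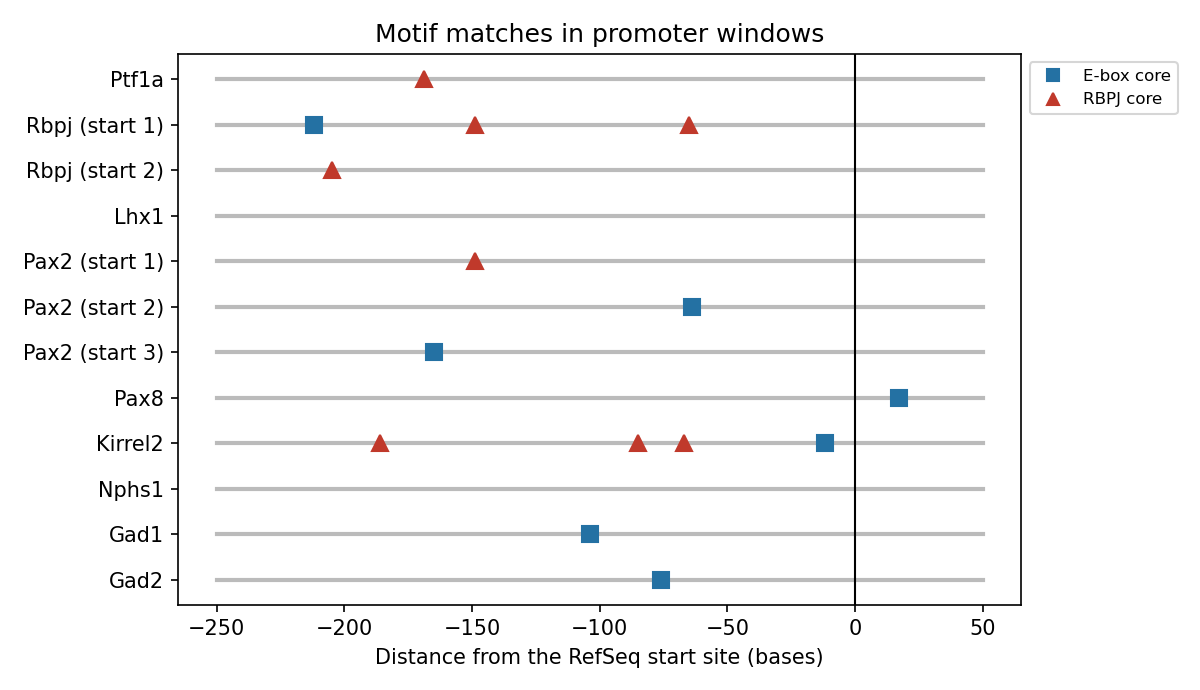
Position of the first base of each match (x axis, bases from the RefSeq start site) in the 12 promoter windows (y axis, one line each, several where a gene has several starts); squares stand for the E-box core and triangles for the Rbpj core. Kirrel2 holds 3 Rbpj cores and an E-box, and the lines of Nphs1 and Lhx1 hold none.

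Further factors of the neural tube were read from lists of genes. All 12 progenitor factors of the dorsal and intermediate neural tube were listed, and 8 lay above the median of the listed genes per kb. The bHLH genes Neurog1 (7.07) and Neurog2 (5.57) and the homeobox gene Dbx1 (7.03) were the highest per kb, although Neurog1 and Neurog2 are best known from progenitors of excitatory neurons and Dbx1 from a more ventral domain. Prdm13, which acts downstream of Ptf1a to repress excitatory genes, was at 2.96 per kb, Gsx1 at 1.87 and Gsx2 at -2.22, beside 1.66 for Ptf1a. Of 15 postmitotic factors of inhibitory or mixed classes, 14 were analysed, with a median of 3.38 per kb. By average log2 CPM, the highest after Lhx1 and Pax2 were Wt1 (6.39) and Lhx5 (5.85), and the lowest were Tal1 (0.58) and Nr4a2 (2.25).

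The 12 postmitotic factors and markers of excitatory neurons had a median of -0.81 per kb, and 0 of 12 lay above the median of the listed genes per kb. Foxp2 (1.83), which is not confined to excitatory neurons, Lhx2 (1.77) and Tlx3 (1.64) were the highest, and the vesicular glutamate transporter Slc17a6 (-3.79) and Barhl2 (-3.70) the lowest. These lists were chosen by hand and are not built alike, and their levels were not tested against each other. The excitatory list includes the transporter Slc17a6, whereas genes of inhibitory transmission form a list of their own. Of 12 genes of inhibitory transmission, 11 were analysed with a median of 1.61 per kb. The vesicular transporter Slc32a1, which loads GABA and glycine, was the highest at 2.90 and the only one above the median of the listed genes. It was followed by Gad1, by Gphn (2.26), the scaffold of inhibitory synapses, and by the neuronal glycine transporter Slc6a5 (2.10). The glycine receptor subunits Glra1 and Glra2 were at 1.61 and -2.08. The peptide genes Npy (0.20) and Pnoc (0.11) were low.

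**Figure D3:**
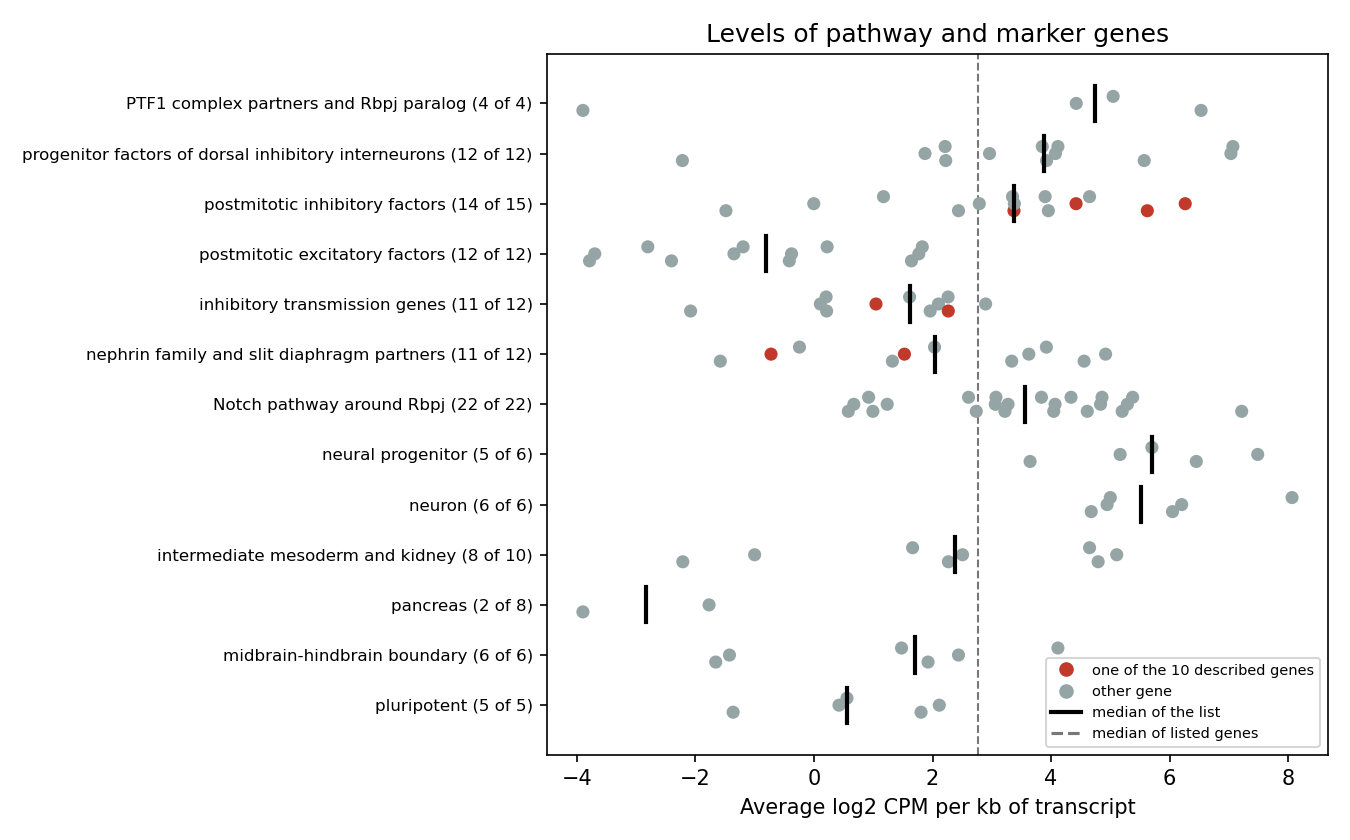
Average log2 CPM per kb of canonical transcript (x axis) of the genes of 13 lists (y axis, with the number analysed of the number in the list); each point is 1 gene, red for the 10 genes of the set, black bars are medians of a list and the dashed line is the median of all listed genes (2.77). The medians are 3.38 for postmitotic factors of inhibitory or mixed classes, which include Lhx1, Lhx5, Pax2 and Pax8, and -0.81 for excitatory factors and markers. The lists were chosen by hand, are not built alike and were not tested against each other. The excitatory list includes the transporter Slc17a6, whereas genes of inhibitory transmission form a list of their own with a median of 1.61.

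Several of the 10 genes also mark other tissues, and the labelled cell type was therefore read from marker genes. All 6 neuron markers lay above the upper quartile of the listed genes by average log2 CPM, led by Tubb3 (9.75). The 5 neural progenitor markers analysed ranged on the same scale from 3.56 for Fabp7 to 9.24 for Msi1, and Sox1 was not analysed here. Per kb, all 5 lay above the median of the listed genes, with Fabp7 the lowest at 3.65. Pancreas, where Ptf1a also acts, was represented by 2 of 8 markers, with an average log2 CPM of 0.60 for Nr5a2 and -2.13 for Rbpjl. Pdx1, Cpa1, Cela1, Prss1, Ins1 and Ins2 were not analysed here. Of 10 markers of the intermediate mesoderm and kidney, where Pax2, Pax8, Lhx1 and Nphs1 are also expressed, 8 were analysed, with average log2 CPM from -0.33 for Gdnf to 7.54 for Podxl. Of these, Osr1 was at 3.29, Eya1 at 3.81, Six2 at 0.11, Ret at 5.02, Wt1 at 6.39 and Sall1 at 7.28. Wt1, Sall1, Ret and Podxl are also expressed in neural cells. The 6 markers of the midbrain-hindbrain boundary ranged in average log2 CPM from -1.36 for Fgf8 to 5.22 for Gbx2. On the same scale, Pax5, which is close to Pax2 and Pax8, was at 1.57. The part of such cells in the levels of Pax2, Pax8, Lhx1 and Nphs1 was not tested. Nor was the part of neurons outside the Ptf1a program in the levels of Lhx1, Lhx5, Pax2 and Pax8. The 5 pluripotency markers ranged in average log2 CPM from -0.19 for Nanog to 3.71 for Klf4.

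How well reads can be assigned to a gene was checked with windows of the length of a read. For 9 of the 10 canonical transcripts, 0 windows recurred on the same strand in a transcript of another gene, also between Lhx1 and Lhx5, Pax2 and Pax8, or Gad1 and Gad2. The exception was Rbpj, where 939 of 5316 windows (17.7%) recurred in the pseudogene Rbpj-ps3, so that the level of Rbpj is uncertain. On the opposite strand, 26.5% of the windows of Ptf1a recurred in Ptf1aos, 26.1% of those of Lhx1 in Lhx1os, 3.39% of those of Pax8 in Gm13415 and 0.554% of those of Nphs1 in Nphs1os. Lhx1os had an average log2 CPM of 5.62. The library kit keeps the strand. Whether it entered the counting was not stated. If it did not, the levels of Ptf1a, Lhx1, Pax8 and Nphs1 may hold reads of their antisense partners, or shared reads may have been lost. The levels of Ptf1a and Lhx1, with the largest shares, are therefore uncertain in either direction.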

How the data were processed

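PolyA RNA of 3 Setd2-KO and 3 wild-type NPC samples was made into strand-specific libraries by the authors. The deposited table gives the average log2 CPM of each gene over all 6 samples, made by the authors with edgeR, and no values per sample. The methods describe a filter on low counts and TMM scaling of library sizes. Whether this table was made with these steps is not certain. The 4 remaining columns of values are fold changes, p-values and FDR of the authors' own comparison and were not used, so no genotype test was run. Trim Galore, STAR, edgeR and the builds NCBIM37 and mm9 stand in the submitters' processing notes, whereas the methods give quantification by Salmon on GRCm39 with GENCODE M35. The version of the Ensembl ID equals that of GENCODE vM39 for 11 of 15095 genes, and IDs were matched without version (15066 found, 29 not).

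Percentiles are shares of listed genes with a lower value. The level per kb is the average log2 CPM minus log2 of the length in kb. RefSeq windows of GRCm38.p6 served for motifs only, and GRCm39 for positions. The members and lists were chosen with earlier results of these data known. All members were named, and every analysed gene of a list of up to 12, otherwise the 4 highest and 2 lowest by average log2 CPM, could be named. The values of a few genes of the lists are not reported here, though they count in the medians and totals of their lists. Protein identities were not computed. The searches were tested on simulated sequences. Python 3.11.15, numpy 2.4.6, scipy 1.17.1, pandas 2.3.3 and matplotlib 3.10.9 were used.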

Additional observations from a re-analysis of the deposited data

How the results depend on the processing

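No paired analysis was possible because the table holds no values per sample, and for the same reason no replicate could be left out. The number of genes found (10) was the same by symbol and by Ensembl ID, and 5 of 10 genes lay above the median of the listed genes under each of the 3 alternatives (protein-coding genes only, genes at log2 CPM 0 or above, and levels per kb). The median percentile of the 10 genes was 54.1 by average log2 CPM, 52.9 among protein-coding genes and 47.6 among genes at log2 CPM 0 or above, where Nphs1 moved most (by 11.1 points), and their order was the same. Per kb it was 51.4, against 52.8 with the union of exons and 52.2 with the coding length, and the order of the genes changed under both. The difference of Gad1 from Gad2 was 1.22, but -0.00984 with the union of exons. The looser E-box CANNTG was found for as many genes as CANCTG (6), but its share of windows was 58.3% against 72.3% of all windows, so the member windows lay below all windows and not above as with CANCTG. The longer Rbpj site GTGGGAA was found for 0 of 9 genes, in 0 of 12 windows, beside 6.38% of all windows. A limit of 30 bases between the motifs, chosen after the data had been seen, left 0 of 2 genes. Among windows of genes in the table, CANCTG was found in 45.5% and TGGGAA in 23.3%. Low genes such as Nphs1 and Ptf1a rest on the fewest reads, and how many cannot be told without the depth.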
